A study of Mus musculus with 6 samples.

Results

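The genes described here are 48 genes of mitosis and cytokinesis, chosen by their known function, with earlier results of these data known. They were found in the count table by symbol through GENCODE M21. All 48 were among the 55487 genes of the table, and all 48 passed the filter on low counts with 12930 genes in all. The lowest count of any of them was 32, for Cdc25c in control replicate 3. Of the 48, Ect2, Racgap1, Kif23 and Anln were set apart as the genes through which RhoA is engaged in cytokinesis.

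All 6 samples sequenced were RAW264.7 cells, an established macrophage-like line of the mouse used as an osteoclast precursor, and all received RANKL and M-CSF, factors under which such cells become osteoclasts. In 3 samples, titled as controls, the genotype was given as wt, and the labels do not say what else those cells received. In the other 3 the genotype was given as RhoA knockout, made with an approach the titles call SMART-Cas9. The labels do not say whether the edited cells were a clone or a pool, or whether the 3 samples of a group were cultured apart, so p-values measure only how far these samples differ, and that spread may be technical. No group is labelled as Cas9 without the targeting of RhoA, and effects of Cas9 and of the edit cannot be told apart.

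Cells enter mitosis when Cdk1, bound to cyclin A or B, is switched on by Cdc25 phosphatases. Chromosomes are then condensed, attached to the spindle through kinetochores and held under a checkpoint until Cdc20 activates the anaphase-promoting complex (APC/C), a ubiquitin ligase that destroys securin and the B cyclins. Cytokinesis follows, when centralspindlin, made of Kif23 and Racgap1, recruits Ect2 to the spindle midzone. Ect2 is an exchange factor that loads RhoA with GTP at the cell equator, and active RhoA builds the contractile ring, to which the scaffold Anln binds. Most of these genes are transcribed late in the cell cycle, under complexes that include B-Myb, FoxM1 and NF-Y.

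Library totals were 60198645 to 81830819 counts. Rhoa itself, on chromosome 9, was not lower in the libraries labelled knockout. It held 1655, 1510 and 1440 counts in the controls and 2805, 2670 and 2395 in the libraries labelled knockout, and the edgeR log2 fold change was 0.41 ± 0.12 (SE; adjusted p = 0.0136). The adjusted p was 0.0645 without control replicate 1 and 0.0741 without knockout replicate 1, both at 0.34 on the log2 scale, and with the length correction that is given with the cytokinesis genes the value was 0.77. An edit that leaves the transcript level as it was would not show in these counts. Every direction below is therefore that of the libraries labelled RhoA knockout, called knockout libraries for short. Macrophage genes such as Lyz2, Cd68, Cd14 and Csf1r were present in all libraries, while Mertk held 4 counts in 1 control library and none elsewhere. Of 10 osteoclast genes 7 passed the filter, and their summed level was low and similar in all libraries, at 24.3 to 27.7 CPM. Ctsk (5.81 ± 1.18 to 12.5 ± 0.593 CPM; SD, n = 3) and Atp6v0d2 were higher in the knockout libraries, Mmp9 (6.61 ± 0.875 to 1.59 ± 0.438 CPM), Acp5 and Dcstamp were lower, and Calcr and Oscar were at 0 in every library. Of 30 markers of fibroblasts, epithelium, lymphocytes, granulocytes and mast cells, and endothelium, 21 were at 0 in all libraries, and the sum of the 30 was 0.146 to 1.46 in TMM-scaled CPM, the unit of levels below, which gives counts relative to library size. Of 9 macrophage markers tested 3 were higher in the knockout libraries (Lyz2, Cd68 and Csf1r) and 5 lower (Itgam at a log2 fold change of -2.01, Fcgr1 at -1.91, Cd14, Adgre1 and Ptprc), with a median of -0.39. The summed level of the list was 18209.8 to 20064.6 CPM in the controls and 81115.7 to 113722.1 CPM in the knockout libraries, most of it Lyz2. The 10 most abundant genes of each library took 62 to 63.2% of its counts in the controls and 44.1 to 47.8% in the knockout libraries. Without the 10 genes of highest count over all 6 libraries, a set that may differ from those, the numbers of the 48 genes called below were the same.

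Of the 48 genes 37 rose in the knockout libraries, none fell, and 11 did not pass an edgeR adjusted p of 0.05. That is 77.1% higher, where 21.0% of all 12930 genes tested were higher and 22.3% lower. The median log2 fold change of the 48 was 1.48, against -0.03 over all genes tested. The 48 values ran from -0.01 for Cdc25b to 3.04 for Ccnb2, and 29 of them were at least 2-fold higher, as were 16.3% of all genes tested. For 38 of the 48 every knockout library lay above every control library, as it did for 27.5% of all genes tested, while 55.8% of all genes tested had no overlap in one direction or the other. In bulk RNA, more cells in mitosis and more RNA of these genes per cell cannot be told apart.

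**Figure D1:**
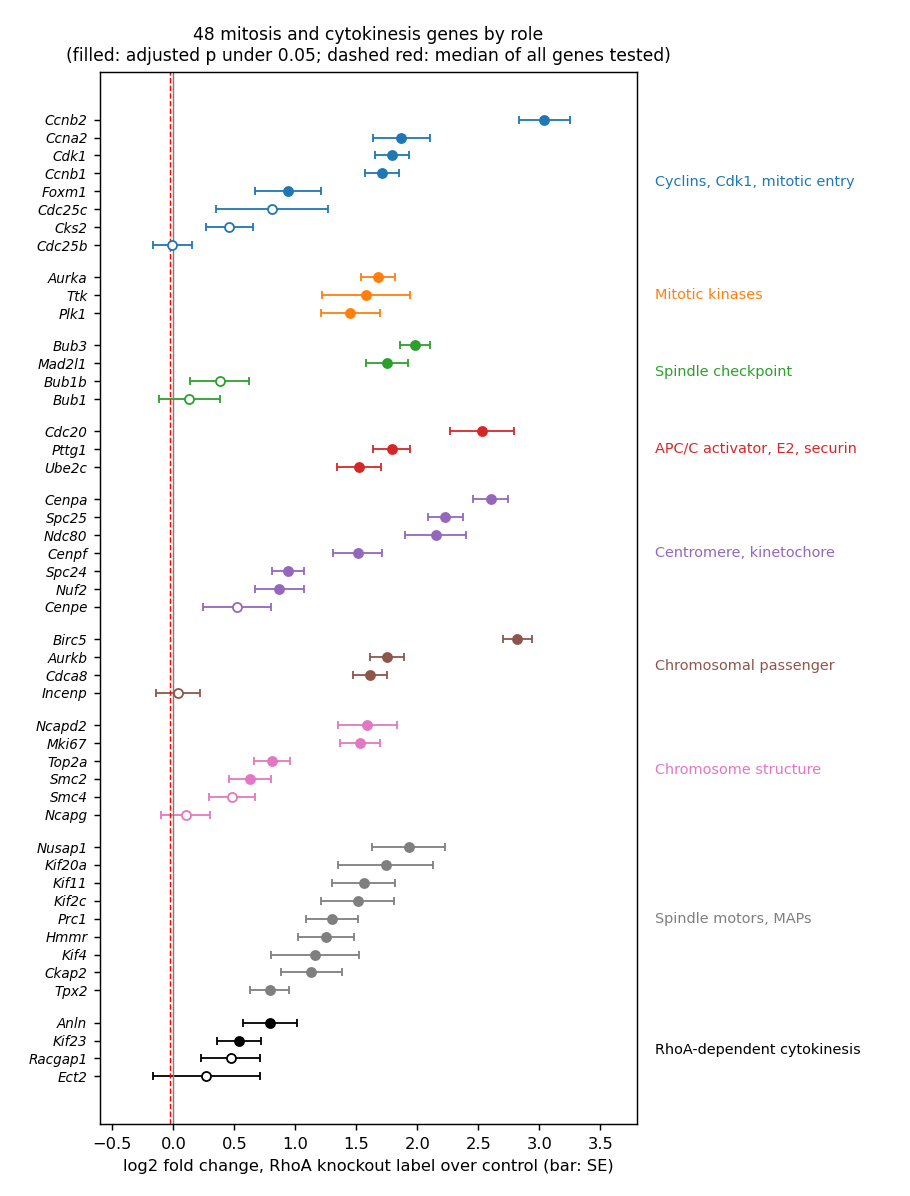
The horizontal axis gives the log2 fold change of knockout over control libraries from edgeR for each of the 48 genes, with bars for the SE, grouped by role. Filled points passed an adjusted p of 0.05 and the dashed red line is the median of all genes tested at -0.03; the values run from -0.01 for Cdc25b to 3.04 for Ccnb2, with Ect2, Racgap1, Kif23 and Anln between 0.27 and 0.79.

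The summed level of the 48 genes was 650.2, 644.1 and 466.4 CPM in the controls and 1805.5, 1834.0 and 1973.5 CPM in the knockout libraries. The knockout sums were close to each other and all above the controls, and the ratio of the group means was 3.19. Control replicate 3 was the lowest of the controls for 44 of the 48 genes, or 91.7%, where this was so for 35.7% of all genes tested. Relative to the control mean, the median of the 48 on the log2 scale was 0.17, 0.17 and -0.39 in the controls and 1.42, 1.47 and 1.2 in the knockout libraries. Without control replicate 3 the count of genes higher was 35 and their median log2 fold change 1.23. Without replicate 3 of both groups, an alternative added after the data were seen, the count was 35 and the median 1.26.

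**Figure D2:**
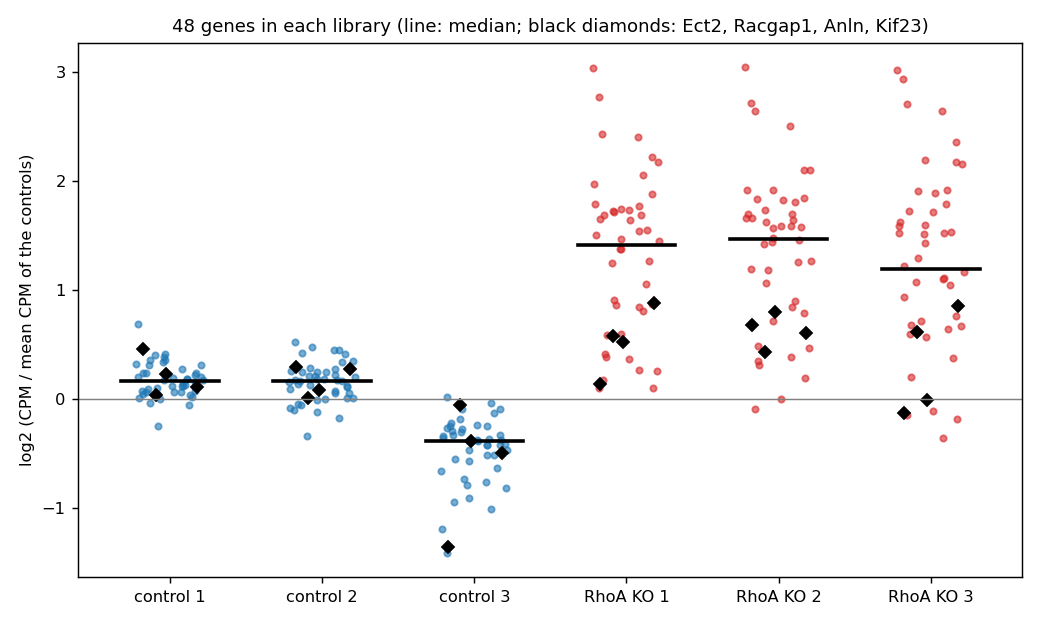
Each point is 1 of the 48 genes in 1 library, as the log2 ratio of its CPM to its mean CPM in the controls, and the black line is the median per library. The medians are 0.17, 0.17 and -0.39 in the controls and 1.42, 1.47 and 1.2 in the knockout libraries, and the black diamonds (Ect2, Racgap1, Kif23 and Anln) lie mostly below the knockout medians.

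The promoters of these genes are shown because genes of this class are known for binding sites of NF-Y, whose core is CCAAT, and for the cell cycle genes homology region (CHR), TTTGAA or TTCGAA, which MuvB complexes bind. RefSeq promoter sequences on GRCm38.p6 matched 39 of the 48 genes, with 42 start sites. Within the 250 bases before the start, CCAAT on either strand was found in 34 of 42 windows, or 81.0%, against 35.9% of 11201 windows of tested genes and 33.8% of all 32851 windows. Either CHR form on either strand, which does not overlap CCAAT in its letters, was found in 18 of 42, or 42.9%, against 12.9% for tested genes and 17.1% for all. A pair of CCAAT in the same orientation 31 to 34 bases apart, a spacing chosen after the sequences were seen, was found in 8 windows, or 19.0%, against 1.6% for tested genes. The 120 bases before the start follow for 5 genes that rose, for Bub1, which did not pass, and for the 4 cytokinesis genes, with CCAAT and CHR matches of either strand in capitals, read 5′ to 3′ on the gene's strand.
Ccnb2, chr9:70421555-70421674, minus strand: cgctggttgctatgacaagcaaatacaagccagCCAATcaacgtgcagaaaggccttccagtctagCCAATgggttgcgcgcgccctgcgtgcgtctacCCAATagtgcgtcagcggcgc
Cdc20, chr4:118437344-118437463, minus strand: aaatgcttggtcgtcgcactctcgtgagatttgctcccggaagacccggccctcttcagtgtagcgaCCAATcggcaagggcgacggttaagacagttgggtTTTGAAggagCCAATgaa
Spc25, chr2:69206214-69206333, minus strand: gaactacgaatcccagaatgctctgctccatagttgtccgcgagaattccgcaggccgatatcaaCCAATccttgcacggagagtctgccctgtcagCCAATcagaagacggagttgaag
Top2a, chr11:99024190-99024309, minus strand: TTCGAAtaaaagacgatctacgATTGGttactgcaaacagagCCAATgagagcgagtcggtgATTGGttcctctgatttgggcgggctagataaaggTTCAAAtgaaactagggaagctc
Kif11, chr19:37376262-37376381, plus strand: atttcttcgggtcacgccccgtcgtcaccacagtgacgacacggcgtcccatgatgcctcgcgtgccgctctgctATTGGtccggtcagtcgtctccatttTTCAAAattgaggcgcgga
Bub1, chr2:127831860-127831979, minus strand: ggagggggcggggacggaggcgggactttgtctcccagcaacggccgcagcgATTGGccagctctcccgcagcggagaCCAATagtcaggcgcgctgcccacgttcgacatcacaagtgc
Ect2, chr3:27153879-27153998, minus strand: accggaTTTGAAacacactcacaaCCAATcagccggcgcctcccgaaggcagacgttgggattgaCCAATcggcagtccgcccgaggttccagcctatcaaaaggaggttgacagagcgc
Racgap1, chr15:99651657-99651776, minus strand: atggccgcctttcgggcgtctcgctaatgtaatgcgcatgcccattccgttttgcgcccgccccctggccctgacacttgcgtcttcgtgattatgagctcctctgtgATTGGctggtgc
Kif23, chr9:61946800-61946919, minus strand: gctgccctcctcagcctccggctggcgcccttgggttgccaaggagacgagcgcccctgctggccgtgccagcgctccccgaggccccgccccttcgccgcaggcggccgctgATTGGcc
Anln, chr9:22389207-22389326, minus strand: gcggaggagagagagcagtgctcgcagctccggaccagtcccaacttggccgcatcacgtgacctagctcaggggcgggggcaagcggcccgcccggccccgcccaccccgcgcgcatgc

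Ccnb2 held 3 CCAAT matches, which start 87, 54 and 21 bases before the transcript start, and no CHR form in the 120 bases shown. Bases after the start were not searched for any gene. Cdc20 held CCAAT and a CHR form side by side close to the start. The higher genes shown all held CCAAT and are examples, not a measure of the 31 higher genes with a promoter entry. Within 120 bases, CCAAT was found in 22 of those 31, and CCAAT together with a CHR form in 8. Birc5, Pttg1, Ndc80, Nusap1, Mad2l1 and Nuf2 rose and held neither in those bases. Bub1 held 2 CCAAT matches although its level did not differ between the groups beyond their spread. CCAAT within 250 bases was found in 23 of the 31 higher genes with a promoter entry and in all 8 of those that did not pass. Either CHR form within 250 bases was found in 13 of the 31 and in 3 of the 8. The CCAAT pair was found in 8 of the 31 and in 0 of the 8. Its spacing was chosen from these sequences, so that contrast was not tested and nothing can be concluded from it. Of the cytokinesis genes, Ect2 held CCAAT matches and, at this start site, a CHR form, Racgap1 and Kif23 held 1 CCAAT each, and Anln held neither in its 120 bases. These are letter matches and no measure of binding.

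The 4 genes of RhoA-dependent cytokinesis showed the smallest shift of the 9 roles, with a median log2 fold change of 0.51. Anln and Kif23 rose and Ect2 and Racgap1 did not pass. Their summed level was 18.2, 17.7 and 12.4 CPM in the controls and 24.5, 25.1 and 21.7 CPM in the knockout libraries, a ratio of means of 1.48. The other 44 genes had a median of 1.52 and a ratio of 3.24, with 35 higher. The difference between the 4 genes and the 44 was not tested.

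Ect2 (ENSMUSG00000027699.19, chromosome 3, 27097222 to 27153878, minus strand, GRCm38), the RhoA exchange factor, was at 2.46, 2.19 and 0.696 CPM in the controls and 1.96, 2.86 and 1.63 CPM in the knockout libraries. The groups overlapped, control replicate 3 was far below the other controls, and the log2 fold change was 0.27 ± 0.44 (SE; edgeR adjusted p = 0.658). Without control replicate 3 it was -0.11 and without knockout replicate 2 it was -0.01, so no direction can be given. Racgap1 (chromosome 15, 99620496 to 99651656), the partner of Kif23 in centralspindlin, was at 6.56, 5.89 and 4.26 CPM against 8.01, 9.68 and 5.54 CPM. Replicate 3 was the lowest of each group, the groups overlapped, and the log2 fold change was 0.47 ± 0.24 (edgeR adjusted p = 0.131), or 0.67 (0.0398) without knockout replicate 3.

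Kif23 (chromosome 9, 61915905 to 61946774), the centralspindlin motor, was at 4.72, 4.63 and 4.43 CPM in the controls and 6.87, 6.19 and 7.05 CPM in the knockout libraries. The groups did not overlap, and the log2 fold change was 0.54 ± 0.18 (edgeR adjusted p = 0.0271). The call was narrow. It was lost without any 1 of the 3 controls or of knockout replicates 1 and 3, with adjusted p from 0.0567 to 0.0885, and without replicate 3 of both groups (0.096). With no filter on low counts it was 0.0507. Anln (chromosome 9, 22332012 to 22389188), the actin, septin and RhoA-binding scaffold of the ring, was at 4.5, 5.04 and 2.97 CPM against 7.68, 6.36 and 7.53 CPM. Every knockout library was above every control, with a log2 fold change of 0.79 ± 0.22 (edgeR adjusted p = 0.0135), which was 0.0576 without knockout replicate 1 and 0.0694 without replicate 3 of both groups.

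These 4 genes are long, with a median exon length of 7490 bp, where the median of all genes tested was 3856 bp. Long genes lay lower in the knockout libraries over all genes: the median log2 fold change was 0.32 for genes up to 2500 bp, 0.06 for 2500 to 5000 bp and -0.34 above 5000 bp. With a correction for this length trend the median of the 4 was 0.86, with Anln at 1.25, Kif23 at 0.93, Racgap1 at 0.78 (edgeR adjusted p = 0.015) and Ect2 at 0.44 (adjusted p = 0.461). The corrected count for the 48 genes was 40 higher and none lower, with a median of 1.40. Without the correction, the 5 members of the shortest class had a median of 1.79, the 20 of the middle class 1.55 and the 23 of the longest class 1.16, and 78.3% of that longest class were higher, against 12.4% of all tested genes of that length.

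**Figure D3:**
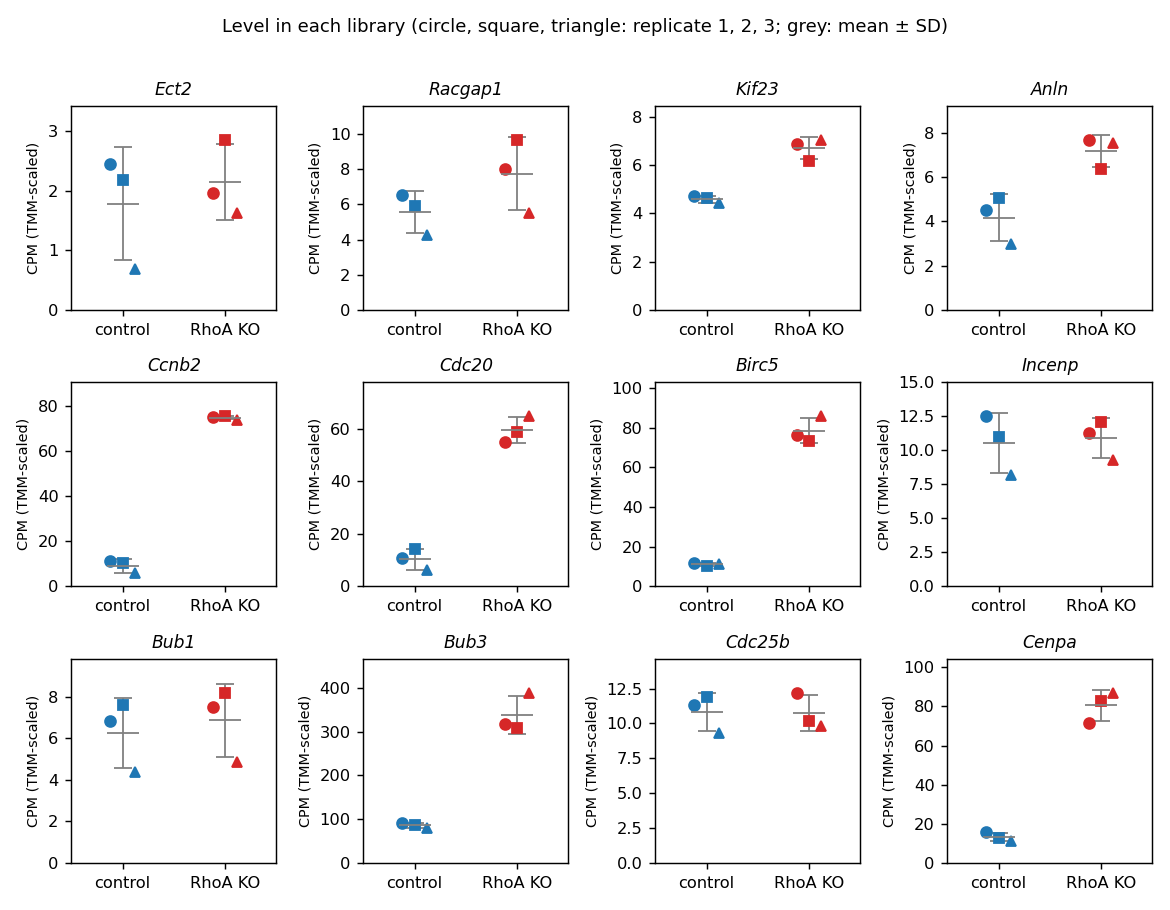
Each panel gives the TMM-scaled CPM of 1 gene in every library (circle, square and triangle for replicates 1, 2 and 3), with the mean and SD in grey. The groups overlap for Ect2, Racgap1, Incenp, Bub1 and Cdc25b, and every knockout library is above every control for Kif23, Anln, Ccnb2, Cdc20, Birc5, Bub3 and Cenpa.

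Of the 8 genes of mitotic entry, 5 rose and none fell. Ccnb2 (chromosome 9, 70407692 to 70421547), a B-type cyclin, was at 11.4, 10.2 and 5.79 CPM in the controls and 75.2, 75.6 and 74.1 CPM in the knockout libraries. The knockout values were nearly equal, and the log2 fold change of 3.04 ± 0.21 (SE; edgeR adjusted p = 8.2e-07) was the largest of the 48. Ccnb1, the other B cyclin measured here, was at 28.5, 29.3 and 20.1 CPM against 83.9, 81.4 and 89.7 CPM. Its log2 fold change was 1.71 ± 0.14, close to that of its partner kinase Cdk1 at 1.79 ± 0.14. Ccna2, the S and G2 cyclin, was at 10.1, 7.12 and 5.89 CPM against 20, 29.2 and 35.4 CPM, with a log2 fold change of 1.87 ± 0.23. Its knockout libraries were spread more widely than those of the B cyclins. Part of its exons overlap those of Exosc9 on the other strand, and Exosc9 held up to 213.14% of the Ccna2 count in a library. The Ccna2 value is therefore uncertain.

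Foxm1, the transcription factor that drives many late cell cycle genes, was at 4.41, 6.13 and 2.65 CPM against 8.03, 9.98 and 7.21 CPM. Its log2 fold change was 0.94 ± 0.27 (edgeR adjusted p = 0.0149), and the adjusted p was 0.0502 without control replicate 1 and 0.0792 without knockout replicate 2. Cdc25b, a phosphatase that starts Cdk1 activation, was at 11.3, 11.9 and 9.28 CPM against 12.2, 10.2 and 9.81 CPM, and the groups overlapped fully. Its log2 fold change was -0.01 ± 0.16 (adjusted p = 0.965). Cdc25c, which acts on the same kinase, was at 1.70, 2.08 and 0.543 CPM against 1.55, 3.31 and 2.76 CPM, with a log2 fold change of 0.81 ± 0.46 (adjusted p = 0.182). It shares 623 bp of exon with Gm3550 on the opposite strand, so the Cdc25c value is uncertain. Cks2, a small Cdk-binding protein, was at 8.46, 6.58 and 5.43 CPM against 9.09, 8.71 and 10.3 CPM, with a log2 fold change of 0.46 ± 0.19 (adjusted p = 0.0734). Its groups did not overlap, and it passed with library totals alone (0.043) and without control replicate 1 (0.0259), while the length correction gave a log2 fold change of 0.04.

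The 3 mitotic kinases all rose. Plk1, a kinase of mitotic entry, spindle and cytokinesis, was at 10.6, 9.69 and 4.85 CPM against 21.8, 22.8 and 24.0 CPM. Aurka, the spindle pole kinase, was at 12.8, 11.2 and 9.45 CPM against 37.1, 33.5 and 36.7 CPM, and Ttk, which starts checkpoint signalling, was at 1.48, 1.26 and 0.594 CPM against 3.73, 3.30 and 3.01 CPM. No knockout library overlapped a control for any of the 3, and the log2 fold changes were 1.45 ± 0.24, 1.68 ± 0.14 and 1.58 ± 0.36.

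The 4 checkpoint genes divided into a pair that rose and a pair that did not pass. Bub3, the adaptor that brings Bub1 and BubR1 to kinetochores, was at 90.6, 86.6 and 80.5 CPM in the controls and 316.4, 308.9 and 388.9 CPM in the knockout libraries (log2 fold change 1.98 ± 0.12, SE; edgeR adjusted p = 2.06e-07). Mad2l1, the inhibitor of Cdc20, was at 9.40, 8.75 and 6.40 CPM against 28.3, 31 and 23.5 CPM. Every knockout library was above every control for both. The kinase Bub1 was at 6.82, 7.59 and 4.38 CPM against 7.52, 8.20 and 4.88 CPM, with replicate 3 lowest in both groups and a log2 fold change of 0.13 ± 0.25 (adjusted p = 0.704). Bub1b, which encodes BubR1, was at 6.25, 8.63 and 4.38 CPM against 9.69, 8 and 7.39 CPM (0.38 ± 0.24, adjusted p = 0.218). The counts of Bub3 over Bub1 were 13.3, 11.4 and 18.4 in the controls and 42.1, 37.7 and 79.7 in the knockout libraries.

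The 3 genes that act with the APC/C or encode its substrate rose as well. Cdc20, its mitotic activator, was at 10.8, 14.1 and 6.11 CPM against 54.9, 58.8 and 64.7 CPM, with a log2 fold change of 2.53 ± 0.26 (edgeR adjusted p = 5.26e-05). Pttg1, securin, was at 44.3, 50.2 and 32.5 CPM against 132.6, 150.1 and 157.6 CPM, and Ube2c, the APC/C's ubiquitin-conjugating enzyme, at 15.4, 16.2 and 9.2 CPM against 37.6, 38.0 and 41.2 CPM. The lowest knockout value of each was more than 2-fold above its highest control.

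Of the 7 centromere and kinetochore genes 6 rose. Cenpa, the centromeric histone H3 variant, was at 15.7, 12.9 and 11.2 CPM against 71.5, 82.9 and 87.0 CPM, with a log2 fold change of 2.60 ± 0.14 (edgeR adjusted p = 7.96e-08). The 4 subunits of the NDC80 complex, which binds microtubules, all rose, by unequal amounts. Spc25 and Ndc80 had log2 fold changes of 2.23 ± 0.14 and 2.15 ± 0.25, and Spc24 and Nuf2 of 0.94 ± 0.13 and 0.87 ± 0.20. The counts of Spc25 over its direct partner Spc24 were 1.36, 1.40 and 1.27 in the controls and 3.5, 3.21 and 3.20 in the knockout libraries, with no overlap. Ndc80 over Nuf2 was 0.788, 0.852 and 0.502 against 1.77, 1.51 and 2.13. Ndc80 is uncertain because the noncoding gene 2700099C18Rik matches part of it and held up to 83.33% of its count in a library.

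Cenpf, a large kinetochore protein, was at 6.01, 7.41 and 4.11 CPM in the controls and 17.1, 16.1 and 16.9 CPM in the knockout libraries (log2 fold change 1.51 ± 0.20). Cenpe, the kinetochore motor, was at 7.96, 7.38 and 3.22 CPM against 8.09, 8.70 and 9.91 CPM. Its groups did not overlap but lay close, and the log2 fold change was 0.52 ± 0.28 (edgeR adjusted p = 0.156), or 0.96 (0.0168) with the length correction.

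The chromosomal passenger complex, which corrects attachments and then moves to the midzone, has 4 subunits, of which 3 rose. Birc5, survivin, was at 11.8, 10.4 and 11.3 CPM against 76.4, 73.4 and 85.7 CPM, with a log2 fold change of 2.82 ± 0.12 (edgeR adjusted p = 1.02e-08). The kinase Aurkb was at 9.69, 10.2 and 7.42 CPM against 29.4, 32.6 and 30.2 CPM, and Cdca8, borealin, at 27.3, 32.5 and 21.5 CPM against 76.8, 87.8 and 83.8 CPM. Incenp, the scaffold that holds the other subunits, was at 12.5, 11 and 8.16 CPM against 11.3, 12.1 and 9.28 CPM. Its groups overlapped, with a log2 fold change of 0.04 ± 0.18 (adjusted p = 0.872). The counts of Birc5 over Incenp were 0.939, 0.942 and 1.38 in the controls and 6.77, 6.07 and 9.24 in the knockout libraries.

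In all, 15 such ratios between partner genes were computed, for pairs chosen after the levels were seen. For 12 of them the groups did not overlap, and no share over other gene pairs was computed to set beside this count. Of all single genes tested, 55.8% had no overlap between the groups. The exact permutation test over samples, two-sided, gave p = 0.1 for each of the 12, the smallest that 3 against 3 allows (0.125 adjusted over the 15 pairs), so no ratio could pass. The other 3 pairs overlapped between groups: Ccnb1 over Cdk1, Kif23 over Racgap1 and Smc4 over Smc2.

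Levels can be compared between genes per length, as CPM per kb of exon. In the controls the 4 passenger subunits lay between 2.44 ± 0.512 for Incenp and 5.24 ± 1.06 for Cdca8 (SD, n = 3). In the knockout libraries they lay between 2.51 ± 0.334 for Incenp and 23.1 ± 1.89 for Birc5, so the span from lowest to highest subunit was 2.15-fold in the controls and 9.18-fold in the knockout libraries. In the NDC80 complex Spc24 and Spc25 were at 12 ± 1.65 and 13.1 ± 2.32 CPM per kb in the controls and 23.1 ± 2.49 and 61.4 ± 5.45 in the knockout libraries. Ndc80 and Nuf2 lay far lower, at 0.496 ± 0.188 and 0.694 ± 0.103 in the controls and 2.20 ± 0.0565 and 1.27 ± 0.195 in the knockout libraries. The B cyclins were at like levels in the controls, 6.16 ± 1.21 for Ccnb1 and 5.96 ± 1.92 for Ccnb2, and at 20.2 ± 1.01 and 48.9 ± 0.487 in the knockout libraries. In centralspindlin Kif23 was at 0.581 ± 0.0187 and Racgap1 at 0.787 ± 0.167 CPM per kb in the controls, and at 0.848 ± 0.0576 and 1.09 ± 0.294 in the knockout libraries. With the longest transcript in place of the summed exons Kif23 was the higher of the pair, Cdca8 was above Birc5 in the knockout libraries, and Ccnb1 was at 10.4 ± 2.04 in the controls, so these orders rest on the length used.

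**Figure D4:**
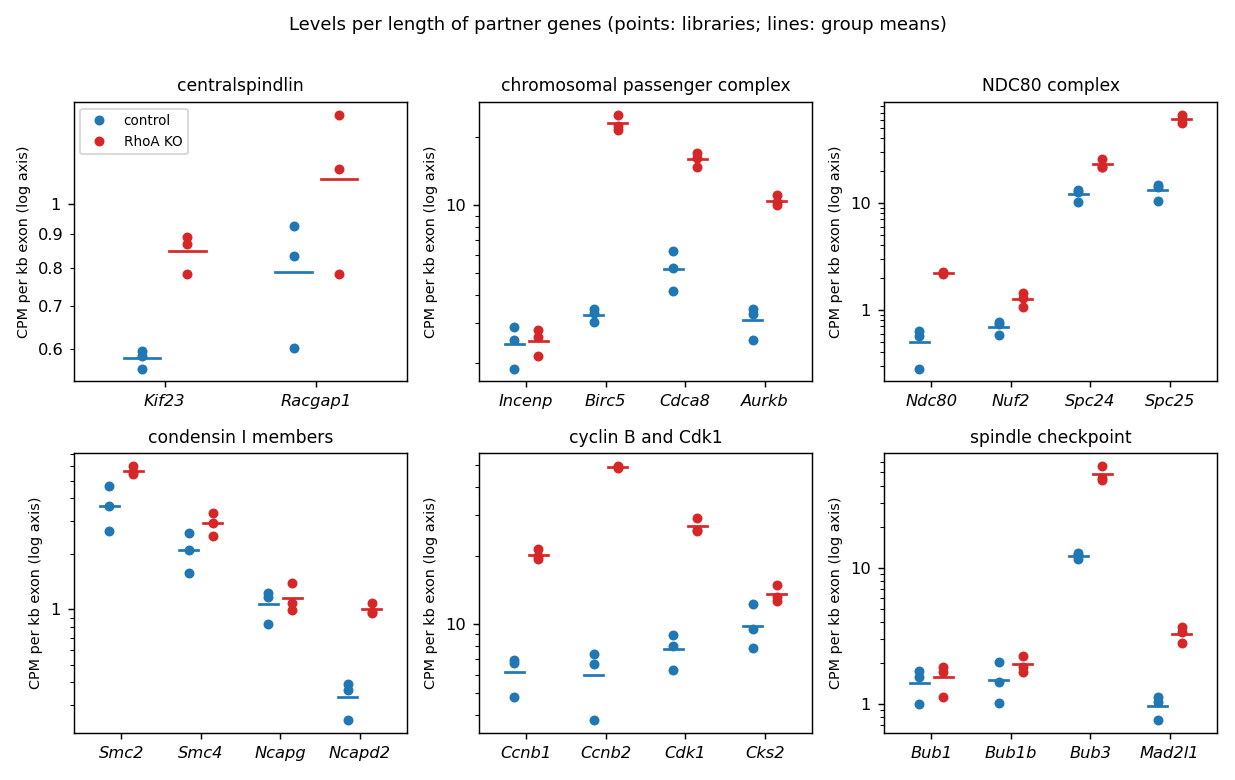
Each panel gives the levels of partner genes as CPM per kb of exon on a log axis, with a point per library and a line at the group mean, control in blue and knockout in red. Incenp is at 2.44 CPM per kb in the controls and 2.51 in the knockout libraries, while Birc5 is at 23.1 in the knockout libraries, and Spc25 separates from Spc24 in the knockout libraries.

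Of the 6 genes of chromosome structure 4 rose. Mki67, the proliferation marker that coats mitotic chromosomes, was at 15.8, 17.3 and 12.7 CPM against 48.2, 48.5 and 35.7 CPM, with a log2 fold change of 1.53 ± 0.16 (edgeR adjusted p = 9.12e-06). Top2a, which untangles sister DNA, was at 29.2, 27 and 18.7 CPM against 45.7, 43.2 and 42.5 CPM (0.81 ± 0.15). Within condensin, which compacts chromosomes, Ncapd2 was at 2.27, 2.44 and 1.56 CPM against 6.08, 6.78 and 6.01 CPM (1.59 ± 0.24). Smc2, an ATPase subunit, rose by 0.63 ± 0.17 on the log2 scale (adjusted p = 0.0115, and 0.0553 without knockout replicate 2). Its partner Smc4 differed by 0.48 ± 0.19 (0.0583). Smc4 passed under 9 of 17 alternatives, among them DESeq2 (0.044). Ncapg was at 8.26, 8.63 and 5.84 CPM against 9.76, 7.61 and 7.02 CPM, with overlap and a log2 fold change of 0.10 ± 0.20 (adjusted p = 0.719). It shares 944 bp of exon with Lcorl on the other strand, which fell by 1.49 on the log2 scale, so the Ncapg value is uncertain.

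All 9 spindle motors and microtubule-associated proteins rose, with log2 fold changes from 0.79 to 1.93. Nusap1, a spindle-bundling protein, was at 3.69, 4.44 and 1.61 CPM in the controls and 13.5, 11.4 and 12.3 CPM in the knockout libraries (1.93 ± 0.30, SE; edgeR adjusted p = 0.000245). Kif11, the motor that separates spindle poles, was at 1.43, 2.07 and 1.60 CPM against 5.59, 5.26 and 4.18 CPM. Kif2c, a microtubule depolymerase, had a log2 fold change of 1.51 ± 0.30 and Hmmr, a spindle pole protein, of 1.25 ± 0.23. In each of these the groups did not overlap. Tpx2, the activator of Aurka at the spindle, had the smallest change of the 9, with 8.58, 6.70 and 7.35 CPM against 13.2, 14.1 and 11.8 CPM.

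Midzone genes upstream of the RhoA step were among them. Prc1, which bundles midzone microtubules, was at 4.11, 4.19 and 2.63 CPM against 10, 8.78 and 8.20 CPM, with a log2 fold change of 1.30 ± 0.21 (edgeR adjusted p = 0.000393). Kif20a, which carries the passenger complex to the midzone, was at 6.01, 3.52 and 1.63 CPM against 14.6, 11.8 and 11.2 CPM (1.74 ± 0.39). Kif4, the motor partner of Prc1, was at 2.00, 2.63 and 1.27 CPM against 4.73, 5.90 and 2.56 CPM. Its knockout replicate 3 lay below control replicate 2, and its adjusted p of 0.0193 rose to between 0.0576 and 0.111 without control replicate 1, control replicate 3, knockout replicate 1 or knockout replicate 2. Ckap2, a spindle protein, had a log2 fold change of 1.13 ± 0.25. The strand setting of the counting is not given, and Kif4, Kif20a and Prc1 share 832, 1271 and 911 bp of exon with Pdzd11, Cdc23 and Rccd1 on the other strand, so these 3 values are uncertain. The same holds for shorter overlaps of Nusap1 with Oip5 (172 bp) and of Cdca8 with 9930104L06Rik (232 bp). Cdc20 also shares 53 bp with Elovl1 on the other strand. Elovl1 held more counts than Cdc20 in every library and rose by 0.81 on the log2 scale, so the Cdc20 value is uncertain too.

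Other genes of the same processes, from lists that hold none of the 48, are given by their counts, beside the 21.0% higher and 22.3% lower of all genes tested. These lists and the DNA replication list were also chosen with earlier results of these data known. Of 154 measured in 6 lists, 68 were higher (44.2%), 22 lower (14.3%) and 64 not called, with a median of 0.48. The difference from the 48 was not tested. Mitotic entry and spindle genes were the most like the 48, with 30 of 46 higher and 2 lower and a median of 1.28. Cdkn3, a phosphatase acting on Cdk1, rose from 2.74 ± 0.325 to 29.1 ± 3.82 CPM (SD, n = 3), a log2 fold change of 3.41 ± 0.16. H2afz, a histone H2A variant, and Kpna2, an importin, had log2 fold changes of 2.94 and 3.11, both uncertain because copies share their sequence. Of 30 other kinetochore and checkpoint genes 18 were higher and 3 lower (median 0.96). Cenpk, a constitutive centromere protein, rose by 2.30 ± 0.23 and Zw10, a checkpoint protein that also acts in vesicle traffic, had a log2 fold change of -1.28 ± 0.11. Cenpw, at 1.77, is uncertain because several transcripts match it.

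Of 17 other APC/C genes 6 were higher and 3 lower (median 0.23), with the subunits Anapc5 at 1.77 ± 0.11 and Anapc10 at 1.47 ± 0.14 and the inhibitor Fbxo5 at 2.33 ± 0.22. Of 14 other condensin and cohesin genes 5 were higher and 3 lower (median 0.20), with the cohesin protector Cdca5 at 1.49, the condensin subunit Ncaph2 at 1.27 and the cohesin ATPase Smc3 at 1.09. Of 32 measured genes of the contractile ring and abscission 6 were higher (18.8%) and 9 lower (28.1%), near the shares of all genes tested (median 0.14). The called genes with the smallest p were Diaph1, the formin that RhoA activates, at a log2 fold change of -1.51 ± 0.16, Myh9, the heavy chain of nonmuscle myosin, at -1.32 ± 0.20, and Chmp6, an abscission protein, at 1.13 ± 0.12. Myh9 was at -0.71 with the length correction. Scaling by library totals alone, which moved the median of all genes tested from -0.03 to 0.15, gave 14 lower in place of 22 over the 6 lists and left the 48 genes with 39 higher and none lower.

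The DNA replication list moved as often as the 48, with 32 of 39 higher, none lower and a median of 1.24. The flap nuclease Fen1 rose from 4.29 ± 0.277 to 24.2 ± 3.67 CPM and the helicase subunit Mcm7 from 11.8 ± 1.17 to 52.7 ± 1.33 CPM (SD, n = 3), the latter sharing part of its sequence with Ap4m1, and Rpa1, which coats single-stranded DNA, had a log2 fold change of 1.83. CCAAT was found in 58.3% of the replication list's promoter windows and a CHR form in 16.7%, against 81.0% and 42.9% for the 48 genes. The replication genes and the 48 were not tested against each other.

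**Figure D5:**
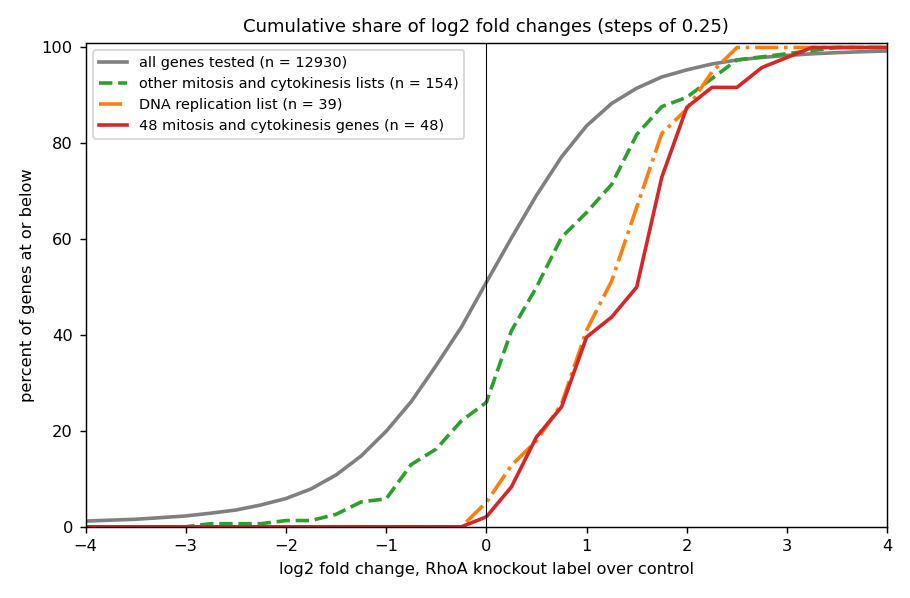
The curves give the percent of genes at or below each log2 fold change, in steps of 0.25, for all 12930 genes tested, 154 other mitosis and cytokinesis genes, 39 DNA replication genes and the 48 genes. The medians are -0.03, 0.48, 1.24 and 1.48.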

How the data were processed

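RNA from 6 samples was measured as whole-number counts per gene, which the authors deposited in 1 table without normalization. The genome build was GRCm38, per the submitters' processing notes. For the aligner, counting tool and strand setting, the choice is not given in the sources used here. Column names gave the sample of every column, with 0 columns left over. Of 55487 IDs, 55227 had a symbol in GENCODE M21.

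The 2 groups were compared with edgeR 4.0.16 in R 4.3.3 (TMM, filterByExpr, robust glmQLFit and glmQLFTest). Two-sided p-values were adjusted over 12930 genes by the Benjamini-Hochberg method and called at 0.05. The SE is the log2 fold change over the square root of F. A floor of 3 counts is 0.0336 to 0.0513 CPM. Copies were sought with blastn 2.17.0 at 95% identity over 200 bp, and a gene was called uncertain where a copy held 10% of its count. The length correction used offsets from a lowess trend on log2 exon length per library. DESeq2 1.42.0, other scalings, filters, left-out libraries and a replicate block were alternatives. The procedure was also run on simulated data with far fewer changed genes than were called here, so that run cannot judge scaling or calls at this share. Named genes were Rhoa, the 48 genes and, from each other list, up to 3 called genes with the smallest p. Further macrophage and osteoclast markers were named after their values were seen, and overlapping genes and copies for the genes they match. Genes and lists were chosen with earlier results of these data known.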

Additional observations from a re-analysis of the deposited data

How the results depend on the processing

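The count of the 48 genes higher ran from 34 to 40 over 17 alternatives, with none lower in any and a median log2 fold change of 1.23 to 1.64. For all genes, the counts ran from 2286 to 3097 higher and from 2083 to 2956 lower. Of 816 values of single genes, 766 kept direction and side of the threshold. Genes higher made up 59.8% of all calls with library totals alone and 48.5% with TMM. Under library totals the other lists had 14 genes lower in place of 22. The cause was not tested.

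Of Ect2, Racgap1, Kif23 and Anln, 2 were higher; 1 was with no filter and with the replicate block, 0 without replicate 3 of both groups (added after the data were seen), and 0 to 2 with each library left out. Their median was 0.86 with the length correction and 0.85 with the replicate block and length correction. Same-numbered samples had deviations correlated at -0.005947, 0.02766 and 0.01372, so these values show no pairing by number. Replicate 3 still stood apart in each group. The chi-square per degree of freedom between the counts of 2 controls was 20.65 for replicates 1 and 2. It was 99.87 and 89.01 for their pairs with replicate 3. In the knockout libraries these values were 26.25, 100.9 and 80.85. Whether the replicate 3 libraries were handled apart is not known and was not tested. The block gave 36 of the 48 genes higher, with Kif23 at an edgeR adjusted p of 0.0507. Not every sample correlated best with its own number.

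Directions turned only for genes that did not pass in any of these fits. Cdc25b was at 0.01 with RLE size factors, 0.17 with library totals, 0.02 with DESeq2 and -0.04 without replicate 3 of both groups, and it ran from -0.13 to 0.06 over the left-out libraries. Left-out libraries gave -0.06 to 0.34 for Bub1, -0.11 to 0.19 for Incenp, -0.07 to 0.20 for Ncapg and -0.11 to 0.58 for Ect2, and Incenp was at -0.00 without replicate 3 of both groups.

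With the longest transcript as length, the span from lowest to highest level per kb was 1.09-fold in place of 1.35 for centralspindlin in the controls, 2.97 in place of 1.99 for Anln over Ect2 in the knockout libraries, 2.64 in place of 2.15 for the passenger complex in the controls, 8.19 and 4.22 in place of 10.9 and 5.63 for condensin in the controls and knockout libraries, and 19.8 in place of 12.6 for the checkpoint genes in the controls. The span was also 7.81 in place of 9.18 for the passenger complex and 42 in place of 30.6 for the checkpoint genes in the knockout libraries. For Anln over Ect2 in the controls it was 2.08 in place of 1.39. The length used is what differs. With all counts divided by 4, 38 of the 48 genes were higher.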

Other observations

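Regulators of the late cell cycle program and genes that hold cells out of the cycle were measured beside the 48 genes. Of 15 subunits of the DREAM and MuvB complexes and of NF-Y, which repress or activate these promoters, 3 were higher (20%), 2 lower (13.3%) and 10 not called, with a median log2 fold change of 0.12, where 21.0% of all genes tested were higher and 22.3% lower. The share higher was thus near that of all genes. The 3 called genes with the smallest p follow as values. Nfyc, a subunit of NF-Y, had a log2 fold change of 0.67 ± 0.14 (SE; edgeR adjusted p = 0.00232) and Rbbp4, a subunit of MuvB, of 0.58 ± 0.16 (0.0101). Rbbp4 was at 0.50 (0.0506) without control replicate 1, 0.42 (0.0949) without replicate 3 of both groups and 1.03 with the length correction. E2f5, a repressing E2F, fell from 1.63 ± 0.548 to 0.236 ± 0.0608 CPM (SD, n = 3), on few counts.

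Of 13 measured inhibitors and quiescence genes 1 was higher (7.69%) and 3 lower (23.1%), with a median of 0.17, and the share lower was near the 22.3% of all genes tested. Cdkn1a, the Cdk inhibitor p21, fell from 328.1 ± 59.2 to 116.5 ± 19.9 CPM, and Btg1, an antiproliferative gene, from 39.7 ± 7.77 to 13.0 ± 1.74 CPM (SD, n = 3). Klf4 rose from 0.444 ± 0.241 to 2.39 ± 0.681 CPM.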
